A study of Drosophila melanogaster with 5 samples.

Results

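The acid sphingomyelinase-like genes of D. melanogaster are 4 genes, CG3376 (named Asm), CG15533, CG15534 and CG32052. They were taken by name from a RefSeq gene table, in which all 4 carry the synonym aSMase, and they have 9 of the 34111 RefSeq transcripts in the deposited counts. The group was selected on the counts themselves, by the known difference of its genes between LB-flies and NB-flies, so that the members' values are given as a description and without a test. RNA-seq was carried out on pooled males of the wild-type strain Oregon-R (Oregon in the labels), 3 days old by the labels, which had developed from the egg either in the deep underground laboratory of the Baksan Neutrino Observatory (LB-flies, low background radiation) or in its ground laboratory (NB-flies, natural background radiation). Both groups were kept in the dark, on the same medium and at the same temperature. There were 3 LB libraries and 2 NB libraries, each from 1 vial, so that the spread between libraries is the spread between vials of 1 experiment, and whatever else differed between both places cannot be told apart from the radiation level.

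Acid sphingomyelinases are lysosomal and secreted phosphodiesterases that cut the head group from sphingomyelin and release ceramide. In humans the loss of the enzyme SMPD1 causes Niemann-Pick disease, in which sphingomyelin accumulates in lysosomes. The membranes of flies hold mainly ceramide phosphoethanolamine in place of sphingomyelin, and the fly genes are assigned to the family by sequence. Ceramide is the branch point of sphingolipid metabolism, from which sphingosine, ceramide phosphates and glycosphingolipids are made.

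The LB libraries held from 23027411 to 24790062 reads assigned to a transcript, and the NB libraries 26036113 and 25001792. Levels are given as CPM, counts scaled to a common library size by TMM normalization, and 3 counts in a library correspond to between 0.115 and 0.136 CPM. Genes of the male accessory gland were well counted in every library, with a sum over 11 genes between 2302 and 7054 CPM in the LB libraries and of 4282 and 4238 CPM in the NB libraries. Of 8 ovary, yolk and eggshell genes, 6 had no transcript with at least 10 counts over all libraries. The highest count of any tested transcript of the other 2 was 18. All 8 but Cp36 have 2 transcripts in the counts, and reads on bases shared by both would be assigned to neither. Their low counts therefore cannot show that these transcripts were absent.

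The counts cover the 4 genes unequally. Reads that overlapped more than 1 transcript are tallied by HTSeq in a separate line as ambiguous, and they made up between 53.9% and 56.3% of the records in the LB libraries and 55.3% and 56.5% in the NB libraries. CG15533 and CG15534 have 1 annotated transcript each and no exon in common with another gene, so that reads on any of their 2203 and 2164 exon bases belong to 1 transcript. They lie side by side on chromosome 3R on the plus strand, CG15533 from 30428820 to 30431362 and CG15534 from 30432064 to 30435139 (dm6), with 701 bases between them and 4 exons in each. Reads that align equally well to both paralogs could be lost among the multiple alignments, which made up between 1.28% and 1.94% of the records in the LB libraries and 1.30% and 1.26% in the NB libraries.

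For CG3376, on chromosome 2R from 24258013 to 24265213, the annotation has 4 transcripts, and 779 of the 4038 exon bases (19.3%) belong to 1 transcript only. These bases lie in 2 of the 4 transcripts, and likewise 2 of the 4 RefSeq transcripts had counts. For CG32052, on chromosome 3L from 9787046 to 9808713, only 17 of 2829 exon bases (0.601%) belong to 1 of its 3 transcripts and to no other gene. A further 258 exon bases are shared with the insulin-like peptide gene Ilp1, which lies inside CG32052 together with Ilp2, Ilp3, Ilp4 and Zasp67. The counts therefore describe the whole transcripts of CG15533 and CG15534, parts of CG3376 and almost nothing of CG32052.

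CG15534 had the highest counts of the family, with 24774 reads over all libraries. Its level was 113, 155 and 141 CPM in LB-flies (replicates 1, 2 and 3), against 283 and 308 CPM in NB-flies (replicates 1 and 2). All LB libraries lay below both NB libraries, and the gap between the groups was wider than the spread inside either of them. The mean was 136 ± 21.5 CPM in LB-flies (SD, n = 3) and 295.5 ± 17.4 CPM in NB-flies (SD, n = 2). The log2 fold change of LB-flies against NB-flies was -1.12 (SE 0.16), a level 2.17-fold lower.

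CG15533, its upstream neighbour, was counted with 24, 55 and 51 reads in LB-flies, against 235 and 238 reads in NB-flies. The level was 0.917, 2.499 and 2.15 CPM in LB-flies, against 9.47 and 9.13 CPM in NB-flies. Both NB libraries were nearly equal, whereas LB replicate 1 was lower than the other LB libraries. The exact Poisson interval (95%, counting error only) of the count in LB replicate 1 was 15.4 to 35.7, beside 41.4 to 71.6 for LB replicate 2 and 38.0 to 67.1 for LB replicate 3. The mean was 1.86 ± 0.831 CPM in LB-flies (SD, n = 3) and 9.30 ± 0.237 CPM in NB-flies (SD, n = 2), with a log2 fold change of -2.33 (SE 0.39). This level was 5.03-fold lower in LB-flies, and of the 17337 transcripts tested 40 had a lower log2 fold change.

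**Figure D1:**
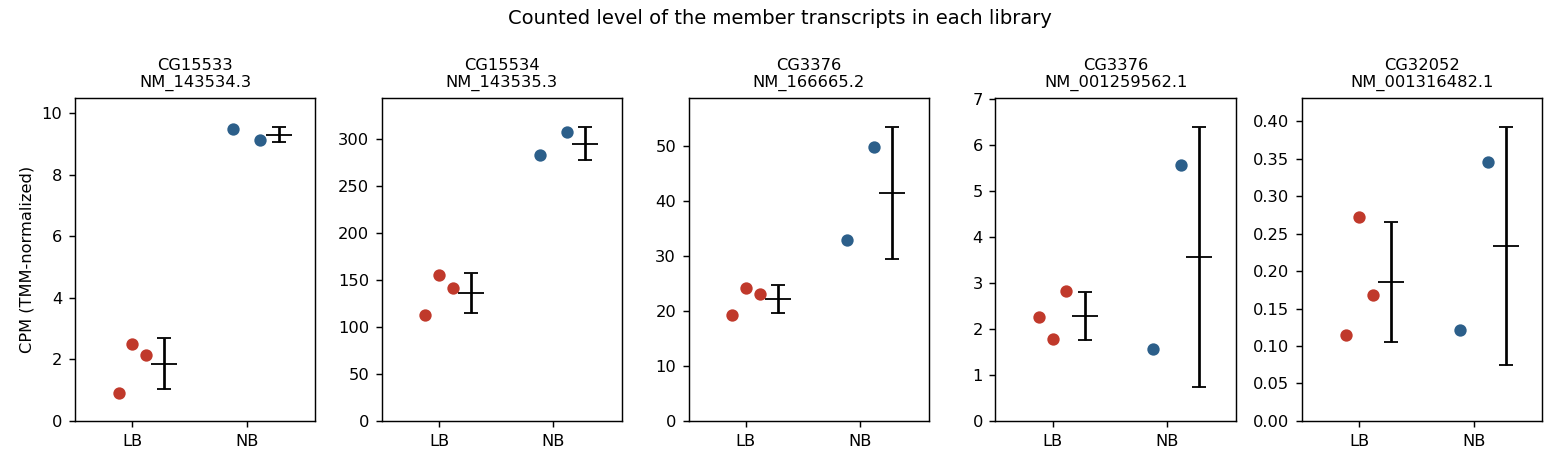
Level of 5 member transcripts in each library, in CPM after TMM normalization on a linear axis from 0, for LB-flies (red, n = 3) and NB-flies (blue, n = 2), with the mean and SD as black bars. The LB points lie below both NB points for CG15533, CG15534 and the transcript NM_166665.2 of CG3376, and the groups overlap for NM_001259562.1 of CG3376 and NM_001316482.1 of CG32052.

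CG3376, the gene named Asm, had reads on NM_166665.2 and NM_001259562.1, and the other two transcripts had no read in any library. NM_166665.2 had 505, 531 and 546 counts in LB-flies, against 818 and 1299 counts in NB-flies. This corresponds to 19.3, 24.1 and 23.01 CPM in LB-flies, against 33.0 and 49.8 CPM in NB-flies. The LB libraries were close to each other and below both NB libraries, which differed from each other more than the LB libraries did. The mean was 22.1 ± 2.53 CPM in LB-flies (SD, n = 3) and 41.4 ± 11.9 CPM in NB-flies (SD, n = 2), and the log2 fold change was -0.90 (SE 0.21). Without NB replicate 2 it was -0.58, and for the summed counts of the gene it was -0.89.

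The second counted transcript of CG3376, NM_001259562.1, had 59, 39 and 67 counts in LB-flies, against 39 and 145 counts in NB-flies. The groups overlapped, since NB replicate 1 (1.57 CPM) was below all LB libraries (2.25, 1.77 and 2.82 CPM) and NB replicate 2 (5.56 CPM) was above them. The log2 fold change of -0.64 (SE 0.52) rested on NB replicate 2 and was 0.53 without it. The transcripts of CG3376 therefore did not have the same order of libraries.

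CG32052 had 36 reads in all. The transcript NM_001316482.1 had 3, 6 and 4 counts in LB-flies, against 3 and 9 counts in NB-flies, and the groups overlapped, with a log2 fold change of -0.35 (SE 0.68) that was 0.57 without NB replicate 2. NM_168375.5 had 2, 0 and 3 counts in LB-flies and 3 counts in each NB library, at or under the floor of 3 counts, so that no fold is given. NM_001316481.1 had no read. With so few reads assigned to CG32052 no difference between the groups was detectable, and whether more of its reads are among the ambiguous ones was not tested.

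In all, 6 of the 9 transcripts had at least 10 counts summed over the libraries and entered the fit, and the 3 others had no count. Of the 6, 3 transcripts of 3 genes lay lower in every LB library than in either NB library, as 13.1% of all tested transcripts did, and all 6 had a log2 fold change below 0, as 52.6% of all transcripts did. The edgeR quasi-likelihood fit, adjusted by the Benjamini-Hochberg method (FDR of 0.05 and 1.5-fold), called 0 of the 6, and it called 0% of the 17337 transcripts, of which 7.57% had an unadjusted p under 0.05. limma-voom also called 0. DESeq2 called 2 of the 6, CG15533 and CG15534, and 0.438% of all transcripts. Without NB replicate 1 DESeq2 called neither of these but NM_166665.2 of CG3376, and without NB replicate 2 it called 0 of the 6. The genes were selected for this contrast, and these counts carry no evidence of their own.

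The exon lengths allow the levels of CG15533 and CG15534 to be compared per length. CG15534 had 63.0 ± 9.93 CPM per kb of exon in LB-flies (SD, n = 3) and 137 ± 8.03 CPM per kb in NB-flies (SD, n = 2). CG15533 had 0.842 ± 0.377 CPM per kb in LB-flies and 4.22 ± 0.108 CPM per kb in NB-flies. Per length, the level of CG15533 in the same library was 0.7975%, 1.58% and 1.495% of that of CG15534 in LB-flies, against 3.28% and 2.91% in NB-flies. CG15533 was the minor paralog in every library, and its share relative to CG15534 was smaller in all LB libraries than in either NB library. This ratio is taken inside a library and does not depend on the normalization between libraries. The counts of NM_166665.2 of CG3376 per 100 counts of CG15534 were 17.1, 15.6 and 16.3 in LB-flies, against 11.6 and 16.2 in NB-flies, so that the groups overlapped for this ratio.

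The genes around the members were examined because position had no part in their choice. On chromosome 3R the 3 genes on each side of CG15533 and CG15534 were compared. CG2218, which lies upstream of CG15533, had 194, 130 and 119 counts in LB-flies, against 141 and 169 counts in NB-flies. Its log2 fold change was 0.01 (SE 0.23). CG15537 lies behind CG15534, with 37 bases between them. The tested transcript of CG15537 had 76, 30 and 42 counts in LB-flies, against 59 and 59 counts in NB-flies, with a log2 fold change of -0.20 (SE 0.35). The groups overlapped for both, so that the genes next to the pair did not share its separation of the groups. The log2 fold changes were -0.09 (SE 0.13) for CG15536, 0.04 (SE 0.17) for mRpS18C, a gene of the mitochondrial ribosome, and 0.09 (SE 0.20) for the better counted transcript of aralar1, a mitochondrial aspartate-glutamate carrier. Osi23 was counted too thinly to compare, with 27, 0 and 1 counts in LB-flies, against 2 and 3 counts in NB-flies.

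**Figure D2:**
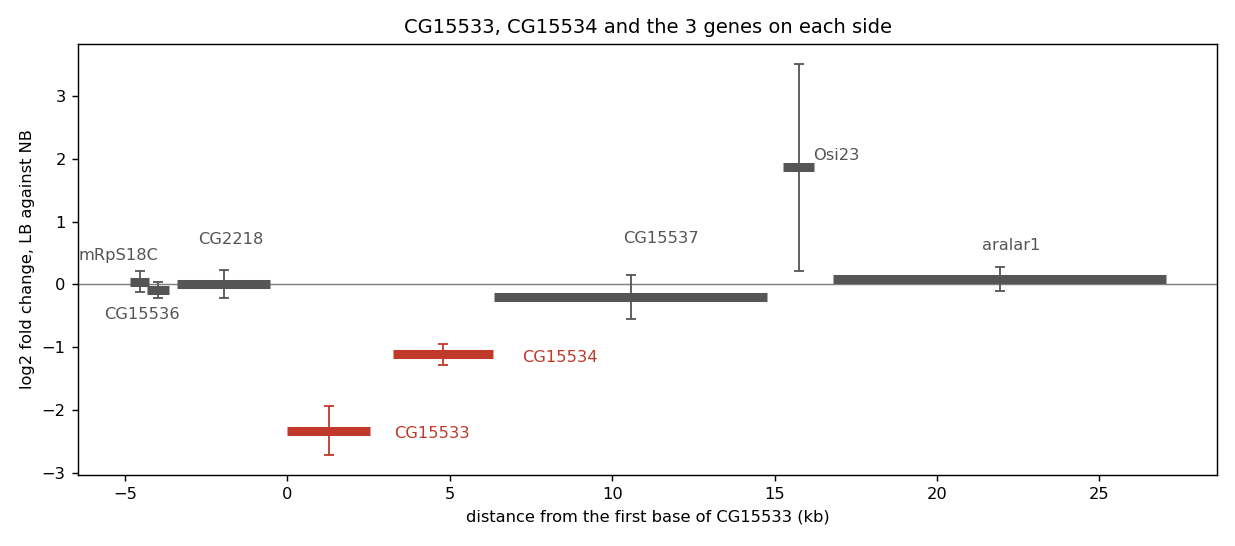
Log2 fold change of LB-flies against NB-flies (y axis, vertical bars are SE) for CG15533, CG15534 (red) and the 3 genes on each side (grey), drawn as horizontal bars over the extent of each gene in kb from the first base of CG15533. Each gene is shown by its transcript with the most counts, and CG15533 (-2.33) and CG15534 (-1.12) lie below the neighbouring genes, of which Osi23 rests on 33 counts.

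Around all members, 24 transcripts of 18 neighbouring genes were tested. In edgeR 1 of them (4.17%, against 7.57% of all transcripts) reached an unadjusted p under 0.05, and edgeR, limma-voom and DESeq2 called 0 after adjustment. Their median log2 fold change was -0.07, beside -0.02 for all tested transcripts. The one transcript was that of CG13575, the gene before CG3376, with 106, 68 and 103 counts in LB-flies, against 137 and 162 counts in NB-flies (log2 fold change -0.61, SE 0.22, edgeR unadjusted p = 0.0305, adjusted p = 0.625). CG13577, on the other side of CG3376, had a log2 fold change of 0.27 (SE 0.14). Of the other genes around CG3376, nord had -0.26 (SE 0.28), Ir60a -0.07 (SE 0.47) and nvy -0.39 (SE 0.29). The tested transcripts of Fatp3 had -0.42 (SE 0.705) and 0.62 (SE 0.44). Of the genes inside CG32052, Ilp2, an insulin-like peptide made in neurosecretory cells of the brain, had 233, 176 and 157 counts in LB-flies, against 281 and 251 counts in NB-flies, with a log2 fold change of -0.42 (SE 0.20, edgeR adjusted p = 0.625). The tested transcripts of Zasp67 had 0.16 (SE 0.63), -0.12 (SE 0.58) and -0.06 (SE 0.57), with overlapping groups. Ilp1, with 12 counts over all libraries, was counted too thinly to compare. Beside CG32052, the tested transcripts of Ae2 had -0.56 (SE 0.26), -0.53 (SE 0.54) and 0.44 (SE 0.74). The noncoding genes lncRNA:CR44348 and lncRNA:CR45407 had 0.40 (SE 0.40) and 0.80 (SE 0.63).

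The other genes of sphingolipid metabolism were taken from a list of 27 genes that was written by function, and all 27 had a tested transcript. Of their 38 tested transcripts 22 were lower and 16 higher in LB-flies, with a median log2 fold change of -0.07, beside -0.02 for all transcripts. edgeR, limma-voom and DESeq2 called 0 of the 38, and in edgeR 2 (5.26%) reached an unadjusted p under 0.05, both lower in LB-flies, where 3.66% of all transcripts were and a further 3.91% were higher. The list as counted was therefore near the background, and most of its values were small. Its genes have 53 transcripts in the counts, and reads on bases shared by transcripts would be ambiguous. Genes with several transcripts may therefore be counted only in part, and a main transcript below is the one with the most assigned reads. Of the 28 transcripts of the list with at least 100 counts over all libraries, 26 had a log2 fold change of at most 0.5 in either direction. The exceptions were Gba1a, a glucocerebrosidase, and Sk1, a sphingosine kinase, with 13, 14 and 23 counts in LB-flies, against 31 and 20 counts in NB-flies (log2 fold change -0.52, SE 0.41).

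The enzyme with the nearest reaction to that of the members is nSMase, the neutral sphingomyelinase. It had 2962, 2690 and 2681 counts in LB-flies, against 2703 and 2904 counts in NB-flies, with a log2 fold change of 0.08 (SE 0.11). The synthases that attach the ethanolamine phosphate head group to ceramide are Cpes and SMSr. Cpes had a log2 fold change of 0.04 (SE 0.16) on its main transcript and of -0.01 (SE 0.73) on the second, which had between 2 and 10 counts. SMSr had 8039, 7127 and 7245 counts in LB-flies, against 6538 and 6745 counts in NB-flies, with a log2 fold change of 0.26 (SE 0.11, edgeR adjusted p = 0.625). None of these genes was lower in LB-flies by more than its SE. In CPM, all LB libraries lay above both NB libraries for nSMase and SMSr, as for 14.8% of all tested transcripts. The groups overlapped for both transcripts of Cpes.

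Among the genes that act on ceramide, bwa, an alkaline ceramidase, had 2052, 1368 and 918 counts in LB-flies, against 1808 and 1922 counts in NB-flies, with overlapping groups and a log2 fold change of -0.29 (SE 0.28). CDase, the neutral ceramidase, was hardly counted. Its transcript NM_170491.2 had 2, 7 and 4 counts in LB-flies, against 20 and 4 counts in NB-flies, and NM_170488.2 had 12 counts in NB replicate 2 and 0 in each of the other libraries, so that no change in the gene can be read from them. Cerk, the ceramide kinase, had a log2 fold change of -0.09 (SE 0.16) on its main transcript and of 0.08 (SE 0.46) on the second. Sap-r encodes the precursor of the saposins, small proteins that present sphingolipids to lysosomal enzymes. Its main transcript had 2189, 1528 and 2137 counts in LB-flies, against 2176 and 2425 counts in NB-flies, with a log2 fold change of -0.16 (SE 0.15).

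**Figure D3:**
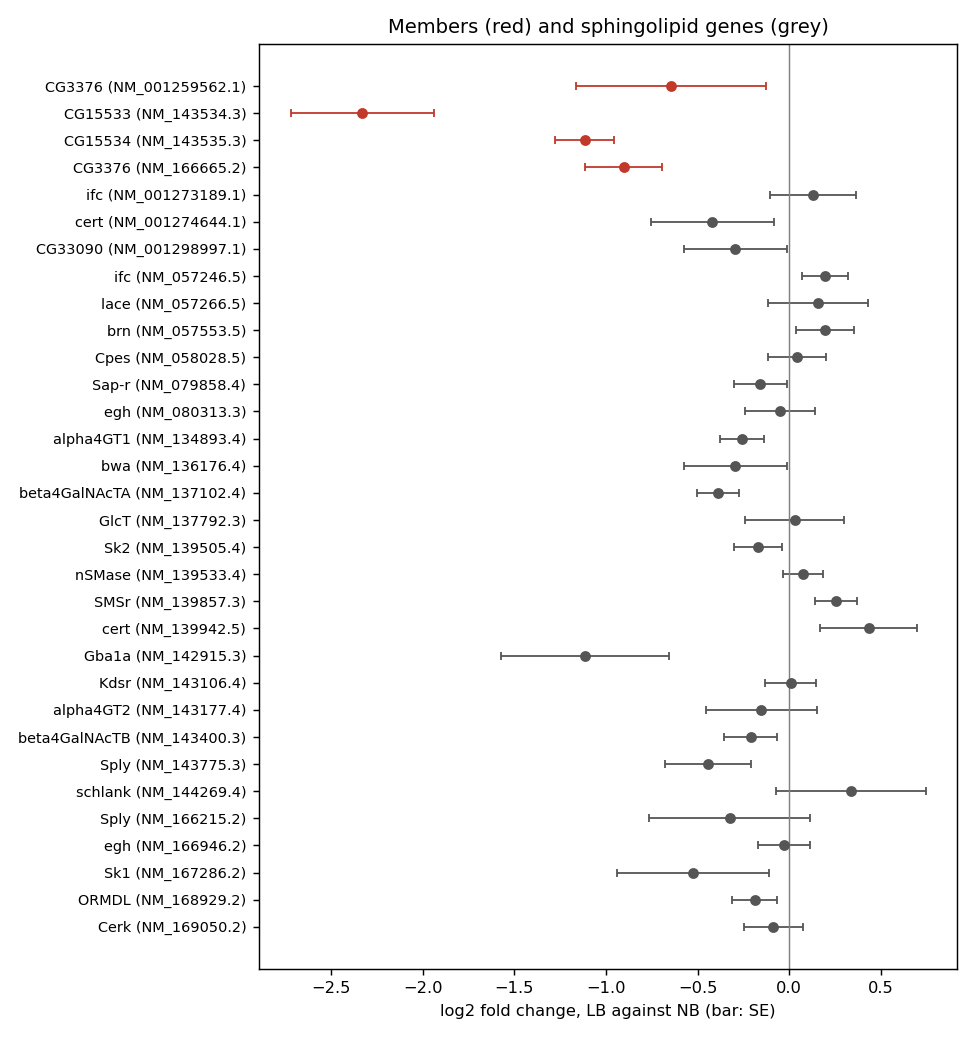
Log2 fold change of LB-flies against NB-flies with its SE for the 4 member transcripts (red) and the 28 transcripts of the sphingolipid list (grey) that had at least 100 counts over all libraries. The members lie at -0.64 and below, and of the list Gba1a (-1.11) lies in the same range.

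Gba1a, which releases ceramide from glucosylceramide in the lysosome, was the transcript of the list with the lowest log2 fold change among those with at least 100 counts. It had 499, 1280 and 1464 counts in LB-flies, against 2471 and 2627 counts in NB-flies. All LB libraries were below both NB libraries, with replicate 1 lowest, as for CG15533 and CG15534. Its log2 fold change was -1.11 (SE 0.46, edgeR unadjusted p = 0.0496, adjusted p = 0.625). Its paralog Gba1b had 8, 5 and 7 counts in LB-flies, against 8 and 16 counts in NB-flies. Gba1b has 2 transcripts in the counts, and reads on bases shared by both would be ambiguous, whereas Gba1a has 1. The counts of these paralogs therefore cannot be compared as levels. The other transcript with an unadjusted p under 0.05 was that of beta4GalNAcTA, which extends the sugar chain of glycosphingolipids, with 1243, 974 and 1032 counts in LB-flies, against 1491 and 1514 counts in NB-flies (log2 fold change -0.39, SE 0.12, edgeR unadjusted p = 0.0135, adjusted p = 0.625).

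Of 31 genes for other proteins of the lysosome, alpha-mannosidases left out, 27 had a tested transcript. Of their 38 transcripts 23 were lower and 15 higher in LB-flies, with a median log2 fold change of -0.11. edgeR, limma-voom and DESeq2 called 0 of them, and in edgeR 4 (10.5%, against 7.57% of all transcripts) reached an unadjusted p under 0.05, 3 lower and 1 higher in LB-flies. Those lower were Hexo2, a hexosaminidase (-0.46, SE 0.19), Idua, an iduronidase of heparan sulfate breakdown (-0.75, SE 0.25), and the sulfatase gene CG18278 (-0.69, SE 0.23), all as log2 fold changes with an edgeR adjusted p of 0.625. The one higher was CtsF, a cathepsin, with 1194, 938 and 1102 counts in LB-flies, against 887 and 857 counts in NB-flies (log2 fold change 0.39, SE 0.12). Hexo1, the fifth by unadjusted p, had at most 7 counts in a library. Lamp1, the main protein of the lysosomal membrane, had a log2 fold change of -0.11 (SE 0.15). Of the 38 transcripts, 7 lay lower in every LB library than in either NB library, and 4 lay higher. Over all tested transcripts these shares were 13.1% and 14.8%, and the list ran in both directions. The 31 genes have 72 transcripts in the counts, so that reads on shared bases would be ambiguous here too.

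The transcripts with the profile most like that of a member over the 5 libraries were sought among the 6886 transcripts whose log2 CPM averaged 3 or more. The measure was the root mean square difference of log2 CPM after each transcript was centred on its own mean, a description of 5 libraries that share the 2 groups. For CG15533 the nearest were CG18179 (0.30), a serine protease-like gene, CG34316 (0.38) and the alpha-mannosidase gene LManVI (0.40). CG18179 had 947, 1434 and 1418 counts in LB-flies, against 4458 and 6299 counts in NB-flies. CG15534 was only the 26th nearest to CG15533, at 0.70. By the log2 fold changes, -2.33 against -1.12, the profile of CG15533 was steeper than that of its neighbour. CG15533 itself averaged under 3 and was not among the 6886, so that it could not be listed near another member.

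For CG15534 the nearest were CG7542 (0.10), a serine protease-like gene, CheB93b (0.13), of a family of chemosensory proteins, and CG12766 (0.15). CG7542 had 449, 601 and 510 counts in LB-flies, against 1238 and 1391 counts in NB-flies. NM_166665.2 of CG3376 stood at place 11, with 0.20. For that transcript the nearest were Mal-B2 (0.08), a maltase gene, CheB93b (0.13) and lectin-28C (0.15), and CG15534 stood at place 10. Mal-B2 had 309, 318 and 331 counts in LB-flies, against 437 and 807 counts in NB-flies. CG15534 and NM_166665.2 of CG3376 were therefore closer to each other than either was to CG15533, which stood 0.85 from NM_166665.2. This did not hold for the gene as a whole, since for NM_001259562.1 CG15534 stood at place 4245, with 0.70. For NM_001259562.1 of CG3376, high in NB replicate 2, the nearest were spn-E (0.27), RecQ4 (0.29) and toc (0.29).

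The whole flies hold several tissues, and fewer cells of a type and less RNA per cell cannot be told apart in such libraries. Of 20 digestive enzyme genes of the midgut 18 were tested, and 17 of the 18 transcripts were lower in LB-flies, as 52.6% of all transcripts were. Their median log2 fold change was -0.82, beside -0.02 for all transcripts. In edgeR 5 of the midgut transcripts (27.8%, against 7.57% of all transcripts) reached an unadjusted p under 0.05. All 5 were lower in LB-flies, as 3.66% of all transcripts were, and edgeR, limma-voom and DESeq2 called 0. The sum over the list was 11870, 17270 and 14820 CPM in LB-flies, against 20480 and 19720 CPM in NB-flies. All LB libraries lay below both NB libraries, and replicate 1 was lowest, as for CG15533, CG15534 and NM_166665.2 of CG3376 but not for NM_001259562.1. The proteases of the list were unequally counted. Jon25Bii had 37 counts over all libraries, betaTry 2 and gammaTry 8, and deltaTry had between 60 and 88 in a library, whereas Jon25Bi had 5632, 10820 and 7786 counts in LB-flies, against 17689 and 29586 counts in NB-flies. The part of this list in the result for the members was not tested.

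Set against that list, CG15534 had 95.1, 89.8 and 95.3 CPM per 10000 CPM of the list in LB-flies, against 138 and 156 in NB-flies. CG15533 had 0.772, 1.45 and 1.45 CPM per 10000 CPM of the list in LB-flies, against 4.62 and 4.63 in NB-flies. For NM_166665.2 of CG3376 the values were 16.25, 13.96 and 15.5 in LB-flies, against 16.1 and 25.3 in NB-flies. The groups stayed apart for CG15533 and CG15534 on this scale, and they overlapped narrowly for NM_166665.2 of CG3376. The sum is weighted to its most counted genes, Mal-A1, alphaTry and Amy-d. Their log2 fold changes were -0.15, -0.45 and -0.17, beside a list median of -0.82 and -1.42 for Jon25Bi. This scale therefore does not compare the members with the midgut genes taken singly, which was not tested.

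**Figure D4:**
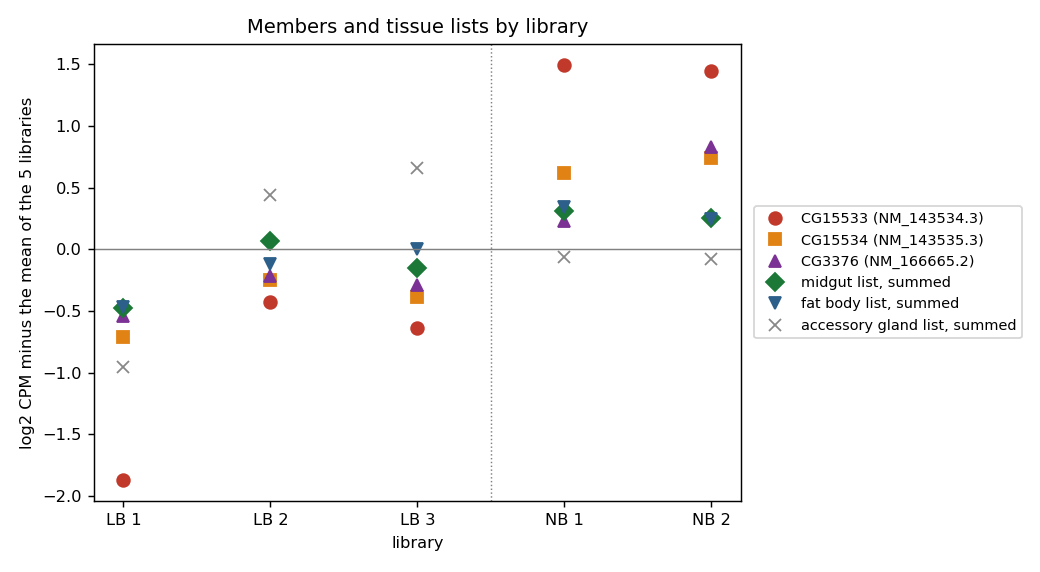
Log2 CPM in each library minus the mean of the 5 libraries, for CG15533, CG15534, NM_166665.2 of CG3376 and the summed levels of the midgut, fat body and accessory gland lists, with the LB libraries to the left of the dotted line. The midgut and fat body sums are lower in the LB libraries, as the member transcripts shown are. These sums cover a narrower range than CG15533, which runs between -1.87 in LB replicate 1 and 1.496 in NB replicate 1.

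Of 6 fat body genes 5 were tested, with 6 transcripts, 4 of them lower and 2 higher in LB-flies, where 52.6% of all transcripts were lower. The median log2 fold change of the fat body transcripts was -0.45, beside -0.02 for all transcripts. Their sum was 363, 461 and 503 CPM in LB-flies, against 635 and 593 CPM in NB-flies. Lsp2 had between 0 and 43 counts, and Fbp1 had none. The accessory gland genes summed to 2302, 6057 and 7054 CPM in LB-flies, against 4282 and 4238 CPM in NB-flies, so that LB replicate 1 stood apart within its group there too. The 8 testis genes summed to 3504, 3663 and 3488 CPM in LB-flies, against 2976 and 2779 CPM in NB-flies, with 7 of 8 transcripts higher in LB-flies. Over all transcripts, 52.6% were lower in LB-flies. DESeq2 called 1 of the testis transcripts, Mst84Dc, and 0.438% of all transcripts. edgeR called 0, with 2 (25%, against 7.57% of all transcripts) at an unadjusted p under 0.05. Both were higher in LB-flies, as 3.91% of all transcripts were. Without LB replicate 1 the log2 fold changes of the members were -1.99 for CG15533, -0.99 for CG15534 and -0.81 for NM_166665.2 of CG3376. The part of these lists in the result was not tested either.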

How the data were processed

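The deposited values are whole-number counts of reads per RefSeq transcript, not normalized, with 1 file per library. The authors made poly(A) libraries with a stranded kit. The submitters' notes name Trim Galore and cutadapt for trimming, HISAT2 for alignment to dm6 and HTSeq for counting. Which HTSeq mode and strand setting were chosen is not given in the sources used here. The 5 summary lines of each file, between 71.6% and 73.6% of its records, were kept out of library sizes and tests.

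Samples were grouped by the treatment in their labels. Transcripts were matched to symbols in a RefSeq gene table of the same assembly (Release 6 plus ISO1 MT, 33899 of 34111 matched), and exons were taken from the Ensembl annotation BDGP6.54, whose transcripts are not paired by name with those of RefSeq and may differ from the annotation the authors used. The 17337 transcripts with at least 10 counts summed over libraries were fitted together with edgeR 4.0.16 (TMM, quasi-likelihood test, Benjamini-Hochberg adjustment) in R 4.3.3. A standard error is the log2 fold change divided by the root of its F value. Alternatives were DESeq2 1.42.0, limma-voom (limma 3.58.1), DESeq2's size factors, library size only, no filter, a filter of 10 counts per library, transcripts summed by gene, a replicate block by each numbering in the labels, and each library left out. DESeq2 with each library left out, and the count of members called, were chosen after seeing the data. The edgeR, DESeq2 and limma-voom fits of all 5 libraries, without a block, were also run on simulated counts with known changes. The other alternatives were not. With 3 and 2 libraries an exact permutation test could not reach a small p and was not used.

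The members and lists were chosen with earlier results of these data known. Named genes are the members, the 3 genes on each side, 7 sphingolipid genes set by function, list transcripts with an unadjusted p under 0.05 (up to 5 for the lysosome) and the 3 nearest profiles. Lamp1, Gba1b, Sk1, Jon25Bi, Jon25Bii, alphaTry, betaTry, gammaTry, deltaTry, Mal-A1, Amy-d, Lsp2, Fbp1, Mst84Dc and Cp36 were named in addition, after their values were seen. Profiles near NM_168375.5, with at most 3 counts, are not given.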

Additional observations from a re-analysis of the deposited data

How the results depend on the processing

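The log2 fold changes of CG15533 and CG15534 moved by less than the spread within groups under all 14 alternatives. With each library left out in turn they lay between -2.62 and -1.99 and between -1.23 and -0.99. Those of NM_166665.2 and NM_001259562.1 of CG3376 lay between -1.16 and -0.58 and between -1.27 and 0.53, and that of NM_001316482.1 of CG32052 between -0.89 and 0.57, in each case with the highest value without NB replicate 2. Over all transcripts edgeR called 0, and between 0 and 1 with a library left out, while DESeq2 called 76, and 150, 58 and 105 without LB replicates 1, 2 and 3 and 69 and 27 without NB replicates 1 and 2. DESeq2 called 2 member transcripts, and between 0 and 2 with a library left out: CG15533 and CG15534 with each LB library left out, NM_166665.2 of CG3376 alone without NB replicate 1, and 0 without NB replicate 2. The cause was not tested. The same-numbered libraries had correlations of -0.18 and 0.02 between their deviations from the group means by repeat number. By library name these were -0.18 and -0.20, where the pair with -0.18 is the same in both numberings. With 2 NB libraries the deviations of that group are mirror images, so that the correlations cannot settle whether same-numbered libraries are linked. With a replicate block by repeat number edgeR called 5 transcripts, 0 of them members, and by library name 0. The median log2 fold change of the sphingolipid list was -0.17 with limma-voom, -0.16 with transcripts summed by gene and -0.17 with the replicate block by repeat number, and between -0.15 and -0.066 with a library left out. The calls of the 3 lists stayed at 0 under the 14 alternatives. With 2 NB libraries the spread of that group is poorly known, and CG32052 and CDase are limited by the few reads assigned to them, the cause of which was not tested.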
